A study of Mus musculus with 12 samples.

Results

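The 10 genes that act on the small GTPase Rac described here were measured in embryonic mouse cranial motor neurons. They are the chimaerins Chn1 and Chn2, the exchange factors Tiam1, Tiam2, Trio, Kalrn, Vav3, Prex1 and Prex2, and the GTPase Rac3. They are named by symbol, and their choice drew on earlier results of these same data, so their levels are given as descriptions with no p-value. The files hold 49671 genes, of which 18022 passed a filter on low counts, and 10 of the 10 genes were among them. Bulk RNA-seq was made from GFP-positive cells of wild-type embryos carrying the Isl1 MN:GFP reporter, which marks motor neurons, dissected at the embryonic ages e10.5 and e11.5 (in days). The nuclei were cMN3 (oculomotor), cMN4 (trochlear) and cMN7 (facial). Each of the 6 groups had 2 libraries, A and B, each from several pooled litters. Reporter males were on a 129S1/C57BL/6J background and the females were C57BL/6J. No group was treated. RNA at e10.5 was amplified over whole transcripts and RNA at e11.5 was selected by oligo-dT, so age and library preparation cannot be told apart in any comparison of the ages.

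Rac is a molecular switch that, when bound to GTP, drives actin assembly at the leading edge of cells and in growth cones. Guanine nucleotide exchange factors (GEFs) turn it on by loading GTP, and GTPase-activating proteins (GAPs), the chimaerins among them, turn it off by speeding GTP hydrolysis. In axons, alpha2-chimaerin relays repulsion from Eph receptors to the cytoskeleton, and the chimaerins are known for their part in the guidance of ocular motor axons.

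Summed expected counts per library were 13991802 to 21464350 at the earlier age and 21938601 to 30536210 at the later. Levels are given as CPM (counts scaled to library size after TMM) and as TPM (scaled to transcript length and library size) where genes are compared with each other. Motor neuron markers were present in every library, with Isl1 at 304 to 862 TPM. The summed level of 8 such markers was 624 to 1489 TPM in cMN3 and cMN4 and 1437 to 1626 TPM in cMN7. The sum of 6 sensory ganglion markers was 14.9 to 46.4 TPM in cMN3 and cMN4 and 52.5 to 95.8 TPM in cMN7. The sum of 9 erythroid markers was 68.2 to 145 TPM in libraries of e10.5 and 154 to 662 TPM in those of the later age. Globin genes are among these markers. As beta-globin depletion is described for the later age, these sums are not comparable between the ages. The sum of 10 progenitor markers was 957 to 1234 TPM in cMN7 and 505 to 862 TPM in cMN3 and cMN4, but for 1620 TPM in cMN4 at e11.5 replicate B. Vim was the largest part of it in every library, at 361 to 900 TPM. Mki67 overlapped between them, at 2.36 to 11.7 TPM in cMN7 and 2.15 to 42.0 TPM in cMN3 and cMN4. So did Top2a, at 12.6 to 26.5 TPM and 6.57 to 145 TPM. In none of the 8 marker lists was a gene at 0 in all libraries. The part of these differences in the results was not tested. In bulk RNA, fewer cells of a type and less RNA per cell cannot be told apart.

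On the TPM scale the 10 genes spanned 0.14 TPM for Prex2 to 322 TPM for Rac3. Chn1 had the highest mean TPM of the 10 in cMN3 at both ages and in cMN7 at e11.5, and ranked second behind Kalrn in cMN4 and cMN7 at e10.5 and behind Rac3 in cMN4 at e11.5. Rac1, the Rac form that most cells use and not among the 10 genes, was at 139 to 408 TPM, and Rac2, known from blood cells, was at 0 to 0.47 TPM.

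**Figure D1:**
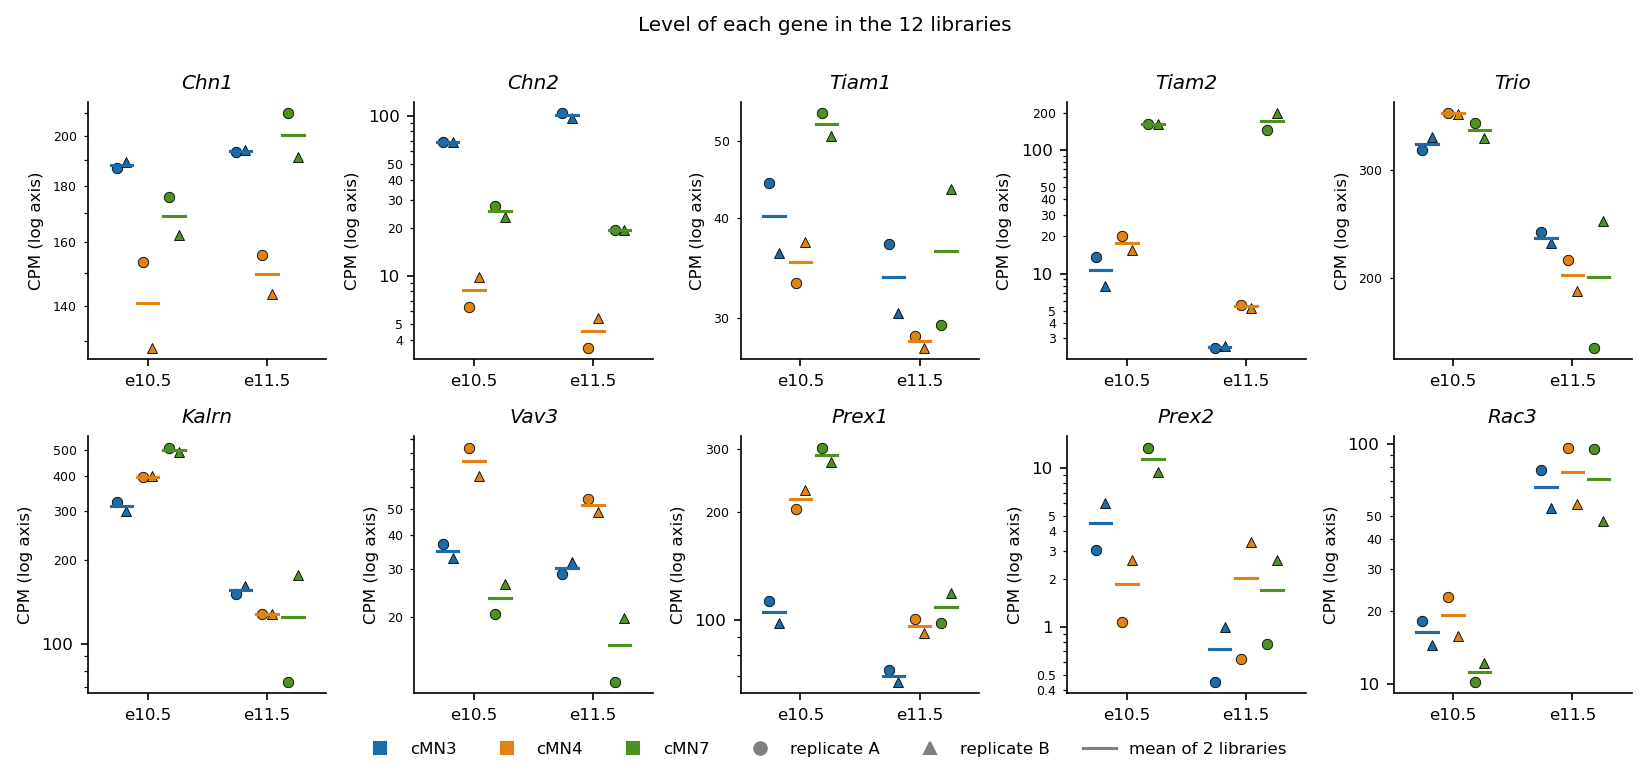
Level of each of the 10 genes in the 12 libraries, in CPM on a log axis that differs between panels, by age and nucleus. Circles are replicate A, triangles replicate B and lines the mean of 2 libraries. Tiam2 lies at 145 to 198 CPM in cMN7 and at 2.52 to 20.0 CPM in the other nuclei, Chn2 is highest in cMN3 and lowest in cMN4, and Rac3 is higher at e11.5 in every nucleus.

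Tiam2 was highest in cMN7 at both ages, and Chn2 was high in cMN3 and low in cMN4. Between cMN3/4 and cMN7, 3 of the 10 genes passed edgeR's test, Vav3 being higher in cMN3/4 and Tiam2 and Prex1 lower, where 11.2% of all genes passed (5.05% higher in cMN3/4 and 6.18% higher in cMN7). Libraries of Tiam2 and Vav3 did not overlap between cMN3/4 and cMN7 at either age, which 8.27% of all genes showed. Between cMN3 and cMN4, 5 of the 10 passed, Chn1 and Chn2 being higher in cMN3 and Tiam2, Vav3 and Prex1 higher in cMN4, where 7.06% of all genes passed (3.57% higher in cMN3 and 3.48% higher in cMN4). These 5 genes also had libraries that did not overlap between cMN3 and cMN4 at either age, as 15.1% of all genes did. Between e11.5 and e10.5, 8 of the 10 passed, where 49.8% of all genes passed. Because the 10 genes were chosen on such levels, nothing is read from these counts.

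**Figure D2:**
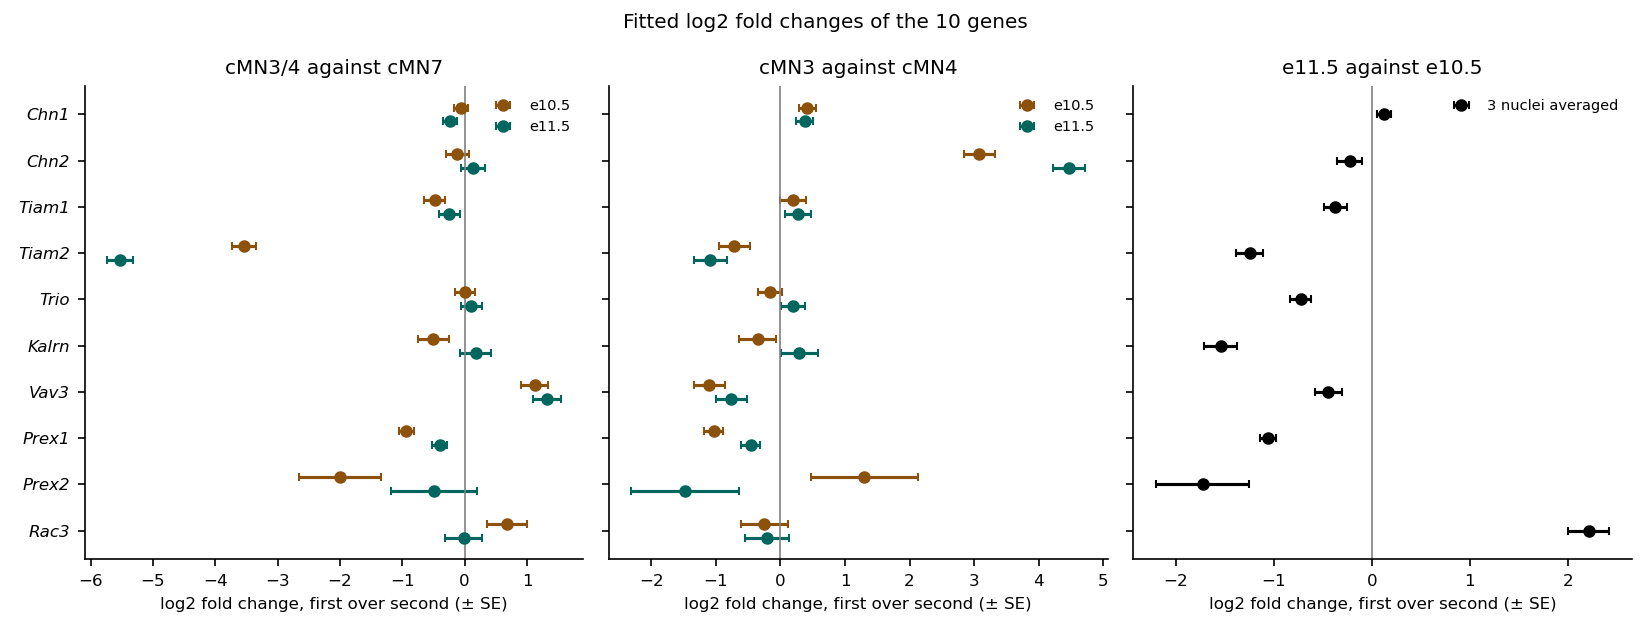
Fitted log2 fold changes of the 10 genes with their standard errors, cMN3/4 against cMN7 and cMN3 against cMN4 at each age, and e11.5 against e10.5 over the 3 nuclei. Tiam2 lies farthest to the left in the first comparison, at -3.54 at e10.5 and -5.53 at e11.5, and Chn2 farthest to the right in the second, at 3.08 and 4.47.

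Chn1 (ENSMUSG00000056486, chr2:73610660-73775346, minus strand, GRCm38) encodes alpha-chimaerin, a Rac GAP of neurons. Its level was 187 and 189 CPM in cMN3 at e10.5 and 193 and 194 CPM at e11.5. In cMN4 it was 153 and 128 CPM, then 156 and 144 CPM. In cMN7 it was 176 and 163 CPM, then 210 and 191 CPM. The gene was thus expressed at a like level throughout, its highest group mean being 1.42 times its lowest, and every cMN3 library lay above every cMN4 library of its age. The difference of cMN3 over cMN4 was 0.40 on the log2 scale (SE 0.09). This small difference passed the test with all libraries but not without any 1 of 8 of the 12, with 0.33 to 0.46 over the 12 such sets, nor at either age alone. On the log2(TPM + 1) scale it was 0.08. Against cMN7, the log2 difference of cMN3/4 was -0.15 (SE 0.08), with 0.05 (SE 0.09) for cMN3 alone and -0.34 (SE 0.09) for cMN4 alone, of which the last passed.

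Chn1 has separate transcription starts for its longer (alpha2) and shorter (alpha1) proteins. The 250 bases before each RefSeq start are shown because the mean transcript length of Chn1, given below, differed between the ages. Age and library preparation cannot be told apart in that difference. The windows, from RefSeq on GRCm38.p6, are chr2:73775347-73775596 and chr2:73660424-73660673, read 5′ to 3′ on the minus strand. Capitals mark GGGCGG, the GC box, and TAATTA, the core of many homeodomain sites, on either strand.
Chn1 distal start: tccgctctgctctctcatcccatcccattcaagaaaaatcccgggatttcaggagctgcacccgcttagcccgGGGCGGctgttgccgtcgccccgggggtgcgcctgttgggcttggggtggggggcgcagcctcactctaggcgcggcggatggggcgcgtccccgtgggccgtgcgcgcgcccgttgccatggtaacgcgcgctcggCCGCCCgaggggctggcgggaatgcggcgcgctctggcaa
Chn1 proximal start: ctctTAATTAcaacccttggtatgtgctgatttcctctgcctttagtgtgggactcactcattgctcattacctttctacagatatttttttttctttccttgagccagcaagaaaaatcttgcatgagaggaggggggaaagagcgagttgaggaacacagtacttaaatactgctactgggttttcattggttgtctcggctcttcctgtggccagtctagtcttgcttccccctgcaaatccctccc
The distal window held 2 GC boxes and was 71.6% G or C, and the proximal window held 1 TAATTA and was 45.2% G or C. Of 32851 such windows of all genes, 32.7% held a GC box and 4.84% held TAATTA, and the median window was 52.4% G or C. These matches describe the letters only. No TATAAA lay in either window, a motif that 12.4% of windows held.

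The files give for each gene a mean transcript length weighted by abundance, which moves when the mix of its transcripts moves. The 10 genes were chosen on levels and not on this length itself. As TPM is scaled to transcript length, the p-values of length are not fully independent of that choice. For Chn1 the mean length was 2192 to 2720 bases in the 6 libraries of e10.5. At e11.5 it was 1690 to 1816 bases in 5 libraries and 2315 bases in cMN7 replicate A. All but that library were thus shorter than every library of e10.5. By limma over 9319 genes, the log2 ratio of length between e11.5 and e10.5 was -0.39 (SE 0.08, adjusted p = 0.0202), where 18.2% of genes passed. The adjusted p was 0.0515 to 0.0612 without any 1 of 6 libraries (the 4 of cMN3 and cMN4 at e11.5 and both of cMN7 at e10.5). The annotated Chn1 transcripts run from 413 to 4050 bases, and models of either start include long and short ones, so the length does not separate the starts. With the shorter length, Chn1 was higher on the TPM scale (from 73.6 to 170 TPM up to 188 to 281 TPM) while its CPM differed by 0.12 (log2, SE 0.08) between the ages and did not pass the test. Strand use in counting is not given in the sources used here, and the antisense gene Chn1os3, whose exons overlap Chn1, had 299 counts over the 12 libraries beside 45706 for Chn1.

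Chn2 (ENSMUSG00000004633, chr6:54039554-54301810, plus strand) encodes beta-chimaerin, the other Rac GAP of this family. In cMN3 its level was 68.3 and 68.4 CPM at e10.5 and 104 and 97.4 CPM at e11.5. In cMN4 it was 6.44 and 9.91 CPM, then 3.57 and 5.42 CPM. In cMN7 it was 27.5 and 23.4 CPM, then 19.3 and 19.4 CPM. The 3 nuclei were ordered cMN3, cMN7, cMN4 at both ages with no overlap of libraries. The log2 difference of cMN3 over cMN4 was 3.77 (SE 0.17), or 13.7-fold. At e10.5 it was 3.08 (SE 0.24), or 8.45-fold, and at e11.5 4.47 (SE 0.25), or 22.2-fold. Mean CPM changed 1.47-fold in cMN3 and 0.55-fold in cMN4 from e10.5 to e11.5. In the average of cMN3 with cMN4 the split was not visible, as cMN3/4 against cMN7 gave 0.01 (SE 0.14) while cMN3 alone gave 1.90 (SE 0.16) and cMN4 alone -1.87 (SE 0.17). On the log2(TPM + 1) scale the difference of cMN3 over cMN4 was 2.97.

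The mean transcript length of Chn2 set 1 group apart. It was 1710 and 1471 bases in cMN4 at e10.5 and 2353 to 2568 bases in the other 10 libraries. Against cMN4, the log2 ratio of length in cMN3 was 0.37 (SE 0.05, limma adjusted p = 0.0357), where 0.504% of 9319 genes passed. With the replicate letter as a block the adjusted p was 0.105 and the count of genes past the test was 8 in place of 47. It was 0.0652 to 0.217 without any 1 of 8 libraries (the 4 of cMN3 and cMN4 at e11.5 and the 4 of cMN7). Between the ages, Chn2 transcripts were longer at e11.5 by 0.23 (log2, SE 0.04, limma adjusted p = 0.00969), where 18.2% of genes passed. That average over nuclei was mostly cMN4, where the mean went from 1591 to 2457 bases, beside 2406 to 2507 bases in cMN7 and 2557 to 2531 bases in cMN3. The values in cMN4 at e10.5 rest on 102 counts in replicate A and a like number in B, beside 1293 and 786 in cMN3 at that age.

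Tiam2 (ENSMUSG00000023800, chr17:3326573-3531344, plus strand) encodes a Rac GEF of neurons, also called STEF. In cMN7 its level was 161 and 164 CPM at e10.5 and 145 and 198 CPM at e11.5. In cMN3 it was 13.6 and 7.91 CPM, then 2.52 and 2.58 CPM. In cMN4 it was 20.0 and 15.6 CPM, then 5.57 and 5.26 CPM. Every cMN7 library stood far above every other, and cMN3 lay below cMN4 at both ages. The summed level of sensory ganglion markers was also higher in cMN7 (52.5 to 95.8 TPM against 14.9 to 46.4 TPM), and its part in the result was not tested. The log2 difference of cMN3/4 from cMN7 was -4.54 (SE 0.14), which is 23.2-fold. It was -3.54 (SE 0.19) at e10.5 and -5.53 (SE 0.20) at e11.5. The mean level fell 4.21-fold in cMN3 and 3.29-fold in cMN4 between the ages and was 1.06-fold in cMN7. The change of the cMN3/4 difference between ages was -1.99 (log2, SE 0.28), and Tiam2 was the only 1 of the 10 genes past edgeR's test of that change, which 0.755% of all genes passed. As Tiam2 was chosen on such levels, nothing is read from that call. Between cMN3 and cMN4 the difference was -0.90 (SE 0.18). It passed the test in all but 1 of the sets with a library left out, cMN4 at e10.5 replicate A (-0.80), but it did not pass at e10.5 alone (-0.71), and at e11.5 alone it passed only with the replicate letter as a block (-1.11, against -1.08 without).

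The files hold 2 Tiam2 transcripts whose inner exons are shared and whose starts lie 70634 bases apart. The first exon is 154 bases at chr17:3326573-3326726 for the upstream start and 138 bases at chr17:3397207-3397344 for the downstream start. In GENCODE vM21 the last exons begin at the same base but end apart, and the transcripts are 5725 (upstream) and 6127 bases (downstream) long. The deposited lengths, however, all lay between 6127 and 6143 bases, and 6143 bases is the length of the upstream transcript if it is extended to the end of the other. The shares below rest on that assumption, which was made after the values were seen. In the 4 cMN7 libraries 97.9% to 100% of Tiam2 was then given to the upstream start. In the 4 cMN3 libraries 0% was. In both cMN4 replicates it was 100% at the earlier age and 0% at the later. Thus cMN3 and cMN7 differed in every library, as did the ages of cMN4. Among 2012 genes with 2 transcripts and a length that varied, 2.29% had cMN3 and cMN7 lengths that did not overlap. This was noticed after the values were seen and is given with no test. The split rests on few reads where Tiam2 is low. From the counts and effective length, 1.55 to 5.98 fragments in cMN3, 3.29 to 7.36 in cMN4 and 62.0 to 125 in cMN7 would be expected to start on a first exon of 138 bases. All-or-none shares in cMN3 and cMN4 are therefore estimates from a handful of fragments per library.
Downstream Tiam2 start, 250 bases before it: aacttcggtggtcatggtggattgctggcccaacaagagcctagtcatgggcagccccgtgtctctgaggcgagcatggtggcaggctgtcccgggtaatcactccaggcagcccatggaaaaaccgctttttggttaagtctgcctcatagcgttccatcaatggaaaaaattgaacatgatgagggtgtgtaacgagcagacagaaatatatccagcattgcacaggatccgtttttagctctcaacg
That window, shown because under that assumption all Tiam2 of cMN3 was given to this start, is chr17:3396957-3397206 on the plus strand from RefSeq on GRCm38.p6. It was 50.8% G or C and held no GC box, TATA box (TATAAA) or homeodomain core on either strand.

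**Figure D3:**
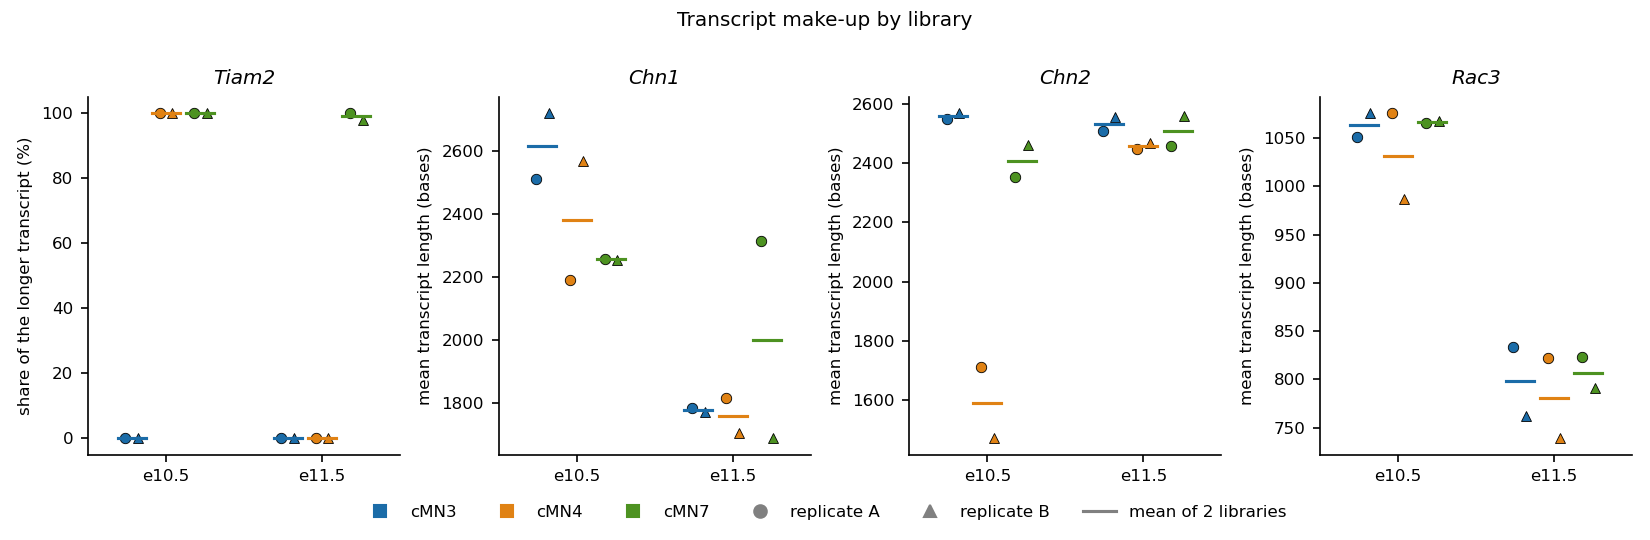
Share of Tiam2 given to the upstream-start transcript, taken as the longer one with a shared end (first panel, in percent) and mean transcript length of Chn1, Chn2 and Rac3 (in bases, axes not from 0), by age and nucleus, with 1 point per library and lines at the mean of 2. Tiam2 lies at 0% in cMN3 and at 97.9% to 100% in cMN7, Chn2 is shortest in cMN4 at e10.5, and Rac3 is shorter at e11.5.

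Tiam1 (ENSMUSG00000002489, chr16:89787111-90143769, minus strand), the sister Rac GEF of Tiam2, had no such pattern. Its level was 54.2 and 50.8 CPM in cMN7 at e10.5 and 29.3 and 43.5 CPM at e11.5. In the 8 libraries of cMN3 and cMN4 it was 27.5 to 44.3 CPM. Libraries of cMN7 were above all others at e10.5 and overlapped them at e11.5. The log2 difference of cMN3/4 from cMN7 was -0.36 (SE 0.12), which did not pass edgeR's test, and passed it at -0.49 without cMN7 at e11.5 replicate A. Highest and lowest group means were 1.88-fold apart for Tiam1 and 67.4-fold apart for Tiam2.

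Trio (ENSMUSG00000022263, chr15:27730651-28025848, minus strand) and Kalrn (ENSMUSG00000061751, chr16:33969073-34573532, minus strand) encode paired large GEFs, each with a Rac-directed exchange domain. Trio lay at 323 to 371 CPM in the 6 libraries of e10.5 and at 154 to 248 CPM in those of e11.5. Nuclei differed little, the log2 difference of cMN3/4 from cMN7 being 0.06 (SE 0.11), though it was 0.25 and passed the test without cMN7 at e11.5 replicate B. Kalrn lay at 509 and 489 CPM in cMN7, 397 and 400 CPM in cMN4 and 324 and 301 CPM in cMN3 at e10.5, with no overlap between nuclei. At e11.5 it was 73.0 and 178 CPM in cMN7, 128 and 128 CPM in cMN4 and 151 and 162 CPM in cMN3, where the cMN7 libraries lay on both sides of the others. The cMN3/4 difference from cMN7 was -0.16 (SE 0.17) and did not pass, but was -0.42 and passed without cMN7 at e11.5 replicate A. In CPM, Trio and Kalrn were lower at e11.5 in every nucleus with no overlap of the ages. The ages did not overlap in either direction for 21.9% of all genes. The log2 differences of Trio and Kalrn were -0.72 (SE 0.11) and -1.54 (SE 0.17). In TPM, the means of both were lower at e11.5 in cMN4 and cMN7. In cMN3 the mean of Trio was 35.4 then 45.5 TPM, and that of Kalrn 72.6 then 67.8 TPM.

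Vav3 (ENSMUSG00000033721, chr3:109340653-109685698, plus strand) is a GEF of the Vav family, which act below tyrosine kinase receptors. Its level was 84.0 and 66.3 CPM in cMN4 at e10.5 and 54.4 and 48.8 CPM at e11.5. In cMN3 it was 37.1 and 33.0 CPM, then 28.8 and 32.1 CPM. In cMN7 it was 20.6 and 26.5 CPM, then 11.6 and 20.0 CPM. At both ages the order was cMN4, cMN3, cMN7 without overlap. The log2 difference was 1.22 (SE 0.15) for cMN3/4 over cMN7, 1.69 (SE 0.17) for cMN4 alone and 0.76 (SE 0.17) for cMN3 alone. That of cMN3 from cMN4 was -0.93 (SE 0.17), with -1.10 at e10.5 and -0.76 at e11.5, the second not past the test.

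Prex1 (ENSMUSG00000039621, chr2:166566342-166713832, minus strand) is a Rac GEF switched on by phosphoinositides and G protein subunits. In cMN7 its level was 303 and 276 CPM at e10.5 and 98.2 and 119 CPM at e11.5. In cMN4 it was 203 and 230 CPM, then 101 and 92.2 CPM. In cMN3 it was 113 and 98.3 CPM, then 72.8 and 67.5 CPM. The nuclei were thus apart at e10.5, in the order cMN7, cMN4, cMN3, and at e11.5 cMN4 and cMN7 overlapped. The log2 difference of cMN3/4 from cMN7 was -0.93 (SE 0.12) at e10.5 and -0.40 (SE 0.12) at e11.5, the second not past the test. Averaged over ages it was -0.67 (SE 0.09) for both nuclei, -1.04 (SE 0.10) for cMN3 alone and -0.29 (SE 0.10) for cMN4 alone, the last not past the test. Against cMN4, cMN3 was at -0.75 (SE 0.10), with -1.04 at e10.5 and -0.46 at e11.5, the second not past the test.

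Prex2 (ENSMUSG00000048960, chr1:10993465-11303681, plus strand), its relative, was the least expressed of the 10, at 0.14 to 5.82 TPM. It was 13.4 and 9.48 CPM in cMN7 at e10.5 and 0.45 to 6.0 CPM in the other 10 libraries. Its 829 counts over all libraries give wide errors, with -1.24 (SE 0.48) for cMN3/4 against cMN7, which did not pass the test. It was -1.67 and passed without cMN4 at e11.5 replicate B, and -1.31 and passed with the replicate letter as a block within age.

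Rac3 (ENSMUSG00000018012, chr11:120721470-120723969, plus strand), the Rac form of developing neurons, rose with age. Its level was 10.2 to 23.0 CPM in the 6 libraries of e10.5 and 47.8 to 96.4 CPM in those of e11.5. The ages thus did not overlap, as was the case in either direction for 21.9% of all genes. Mean CPM rose 4.03-fold in cMN3, 3.93-fold in cMN4 and 6.40-fold in cMN7, and the log2 difference over nuclei was 2.22 (SE 0.21). At e11.5 replicate A was above replicate B in all 3 nuclei. No nucleus differed from the others past the test, with 0.33 (SE 0.22) for cMN3/4 against cMN7 and -0.23 (SE 0.25) for cMN3 against cMN4. The mean transcript length of Rac3 fell from 987 to 1076 bases at e10.5 to 739 to 833 bases at e11.5, with no overlap (log2 ratio -0.41, SE 0.04, limma adjusted p = 0.00135). That length test was passed by 18.2% of 9319 genes. Its annotated transcripts are 1076, 717 and 589 bases long. At e10.5 Rac3 was at 16.8 to 50.6 TPM, beside 139 to 315 TPM for Rac1. At e11.5 Rac3 was at 256, 322 and 280 TPM in replicate A of cMN3, cMN4 and cMN7, beside 332, 321 and 291 TPM for Rac1. In replicate B it was at 206, 231 and 172 TPM, beside 365, 408 and 363 TPM, so that it lay well below Rac1 in every replicate B.

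With age, 7 of the 10 genes were lower and Rac3 alone higher at e11.5 among those past edgeR's test, where 23.1% and 26.6% of all genes were. The log2 difference was -1.06 (SE 0.08) for Prex1, -1.25 (SE 0.14) for Tiam2 and -1.73 (SE 0.48) for Prex2. These are averages over nuclei, and the mean CPM of Tiam2 in cMN7 (162 then 172) and of Prex2 in cMN4 (1.86 then 2.02) was not lower at e11.5. Vav3 (-0.44, SE 0.14) and Tiam1 (-0.37, SE 0.12) passed but did not without any 1 of 5 and 8 libraries, with values of -0.57 to -0.30 and -0.45 to -0.26 over the 12 such sets. On the log2(TPM + 1) scale, where the median of all genes itself shifted by 0.33 toward e11.5, Tiam1 and Vav3 turned to 0.06 and 0.05, which are -0.27 and -0.28 relative to that median. On that scale and relative to the same median, Prex1 was at -0.88, Kalrn at -1.43, Trio at -0.58, Rac3 at 2.74 and Chn1 at 0.68.

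Of the 7 genes of the 10 that could be tested for transcript length (2 or more annotated transcripts and a mean of at least 1 TPM in every group), none passed between cMN3/4 and cMN7 by limma, where 0.0429% of 9319 genes did. Chn2 came closest there, at a limma adjusted p of 0.507, and was the only 1 of the 7 with an unadjusted p under 0.05. The count of genes past this test, 4, moved with single libraries, being 0 without cMN7 at e10.5 replicate A and 137 without cMN3 at e10.5 replicate A. Trio had the same length, 11494 bases, in all libraries.

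Other genes of the pathway were taken from 5 lists of 89 genes, of which 84 passed the count filter. The lists were picked by known function, but with earlier results of these data known, which limits the p-values below. Between cMN3/4 and cMN7, 21 of the 84 passed edgeR's test, 8 higher and 13 lower in cMN3/4, where 11.2% of all genes passed (5.05% higher and 6.18% lower). At e10.5 alone 17 passed, beside 2072 of all 18022 genes. At e11.5 alone 8 passed, beside 4.97% of all genes, and these were Dock5, Elmo2, Spata13, Arhgap22, Pak3, Epha3, Epha8 and Efna5. Between cMN3 and cMN4, 16 of the 84 passed, where 7.06% of all genes did, with 16 at e10.5 alone (7.95% of all genes) and 7 at e11.5 alone (1.85%). The median log2 difference of the 84 between cMN3/4 and cMN7 was -0.01, as was that of all genes. Without cMN7 at e10.5 replicate A or B, 13 and 12 of the 84 passed in that comparison. Among 25 other Rac GEFs and their partners, 3 were higher and 4 lower in cMN3/4, with a list median of 0.04. Spata13, an exchange factor for Rac and Cdc42, followed Tiam2 in its order of nuclei. It was at 318 and 317 CPM at e10.5 and 304 and 378 CPM at e11.5 in cMN7, at 41.8 to 110 CPM in cMN4 and at 9.03 to 14.8 CPM in cMN3. No nucleus overlapped another in any library. Its log2 difference was -3.53 (SE 0.12, adjusted p = 8.48e-09) for cMN3/4 against cMN7 and -2.50 (SE 0.15, adjusted p = 1.99e-06) for cMN3 against cMN4. Elmo2, a partner of Dock GEFs, was lower in cMN3/4 by -0.54 (SE 0.08, adjusted p = 0.000566). Dock5, a Rac GEF, was higher in cMN3/4 by 1.62 (SE 0.19, adjusted p = 0.000146). In cMN3 over cMN4 it was higher by 1.42 (SE 0.21, adjusted p = 0.0017). By limma on log2(TPM + 1), Dock5 was at 0.93 between cMN3 and cMN4 and did not pass (adjusted p = 0.0706).

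Dock4, a Rac GEF, was higher in cMN3/4 by 0.77 (adjusted p = 0.0172), a call lost without either cMN7 library of e10.5 (0.84 and 0.71). Arhgef6, also called alpha-PIX, was at 3.95 to 10.4 CPM in cMN3 and 0.57 to 1.85 CPM in the other 8 libraries. It was higher in cMN3 than in cMN4 by 2.30 (SE 0.40, adjusted p = 0.0058), and its call against cMN7 (1.62) was lost without cMN7 at e10.5 A (1.81), e10.5 B (1.47) or e11.5 B (1.51). Dock2, the Dock GEF of white blood cells, was called lower in cMN3/4 (adjusted p = 0.00798), but was at 0 to 1.28 CPM, and the call was lost without cMN7 at e10.5 replicate B (adjusted p = 0.0828). The sum of 7 white blood cell markers was 1.14 to 5.06 TPM in cMN3 and cMN4 and 2.31 to 10 TPM in cMN7, with Ptprc at 0 to 0.23 TPM. The part of such cells was not tested. Elmo1, the relative of Elmo2, was higher in cMN3 than in cMN4 by 0.93 (SE 0.15, adjusted p = 0.00357). By limma on log2(TPM + 1) its difference was 0.655 and did not pass (adjusted p = 0.162). Of the 25, 4 passed in that comparison, 3 higher and 1 lower, where 7.06% of all genes did, with a list median of -0.05.

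Of 13 other Rac GAPs, 0 passed between cMN3/4 and cMN7 by edgeR, with 2 at an unadjusted p under 0.05 and 2 called by DESeq2, all lower in cMN3/4, and 2 with the replicate letter as a block within age. At e11.5 alone Arhgap22 passed (-1.29, SE 0.29, adjusted p = 0.0237). Of all genes 11.2% passed over both ages, and the list median was -0.01. Between cMN3 and cMN4, 4 passed, where 7.06% of all genes did. Arhgap24 was higher in cMN3 by 1.70 (SE 0.24, adjusted p = 0.00137), at 12.9 to 20.6 CPM against 3.59 to 6.25 CPM in cMN4. Abr was higher by 0.64 (SE 0.11, adjusted p = 0.00437), and Srgap2 by 0.42 (adjusted p = 0.0444), the latter not without any 1 of 9 libraries (0.34 to 0.45). Arhgap22 was lower by -2.08 (SE 0.26, adjusted p = 0.000568), at 1.87 to 5.39 CPM against 7.60 to 26.0 CPM. By limma on log2(TPM + 1), Abr was at 0.46 between cMN3 and cMN4 and did not pass (adjusted p = 0.165). On counts the list median was -0.06.

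Of 5 Rac GTPases and GDP dissociation inhibitors, Arhgdig alone passed, at 1.19 (SE 0.28, adjusted p = 0.0158) for cMN3/4 over cMN7, where 11.2% of all genes passed. It was at 1.67 and 1.47 CPM in cMN7 at e10.5, below the 6.34 to 14.8 CPM of the others, and at 22.9 and 9.33 CPM at e11.5, where it overlapped them. The call was lost without either cMN7 library of e10.5 (1.24 and 1.15), and the list median was -0.11. Between cMN3 and cMN4, 0 of the 5 passed by edgeR, with 1 at an unadjusted p under 0.05, 1 called by DESeq2 and 1 with the replicate letter as a block within age.

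Of 17 Rac effectors, 2 were higher and 3 lower in cMN3/4, where 5.05% and 6.18% of all genes were, with a list median of -0.07. Pak3, a kinase that binds active Rac, was higher by 1.06 (SE 0.13, adjusted p = 0.000151), at 83.5 to 131 CPM against 43.2 to 56.1 CPM in cMN7. Cyfip2, a subunit of the WAVE complex, was lower by -0.65 (SE 0.11, adjusted p = 0.00225) and was lower in cMN3 than in cMN4 by -0.85 (SE 0.13, adjusted p = 0.00271). Baiap2 (-0.81), Limk1 (-0.39) and Wasf3 (0.31) passed with adjusted p of 0.0381, 0.0454 and 0.0478, but not without any 1 of 9, 9 and 11 libraries, with adjusted p up to 0.185, 0.194 and 0.264. Pak1 and Cfl1 were higher in cMN3 than in cMN4 by 0.38 and 0.42 (adjusted p = 0.037 and 0.0263), each not without any 1 of 9 libraries, with adjusted p up to 0.144 and 0.13. In all, 3 of the 17 passed between cMN3 and cMN4, where 7.06% of all genes did, and the list median was 0.09.

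Of 24 Eph receptors, ephrins and Nck adaptors, 2 were higher and 6 lower in cMN3/4, beside 11.2% of all genes in either direction, with a list median of -0.14. At e11.5 alone 3 of the 24 passed, 1 higher and 2 lower, beside 4.97% of all genes. Epha3 was lower by -2.60 (SE 0.32, adjusted p = 0.000175), at 0.94 to 6.23 CPM against 13.3 to 23.9 CPM in cMN7. Efnb2, which encodes ephrin-B2, was lower by -1.03 (SE 0.10, adjusted p = 3.06e-05), and Epha5 by -0.88 (SE 0.12, adjusted p = 0.000474). At e11.5 alone the difference of Efnb2 was -0.06, and that of Epha5 was -0.48. Epha8 was higher by 1.35 (SE 0.23, adjusted p = 0.00199), with cMN4 at 17.6 to 36.2 CPM against 2.87 to 9.51 CPM in cMN3 and 3.44 to 5.71 CPM in cMN7, and cMN3 was below cMN4 by -2.33 (SE 0.25, adjusted p = 0.000236). Epha10 was higher in cMN3/4 by 0.54 (adjusted p = 0.0243), but not without cMN3 at e11.5 A (0.53), cMN7 at e10.5 A (0.42) or cMN7 at e11.5 B (0.52), and was -0.06 for cMN4 alone. It was higher in cMN3 than in cMN4 by 1.2 (SE 0.15, adjusted p = 0.000793). Epha4, the receptor that alpha2-chimaerin is known to act below, was lower in cMN3 than in cMN4 by -1.68 (SE 0.19, adjusted p = 0.000277). It was at 14.7 to 36.5 CPM in cMN3 and 47.4 to 132 CPM in cMN4, where Chn1 differed 1.31-fold the other way. In that comparison 5 of the 24 passed, 1 higher and 4 lower in cMN3, where 7.06% of all genes passed, with a list median of -0.14.

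**Figure D4:**
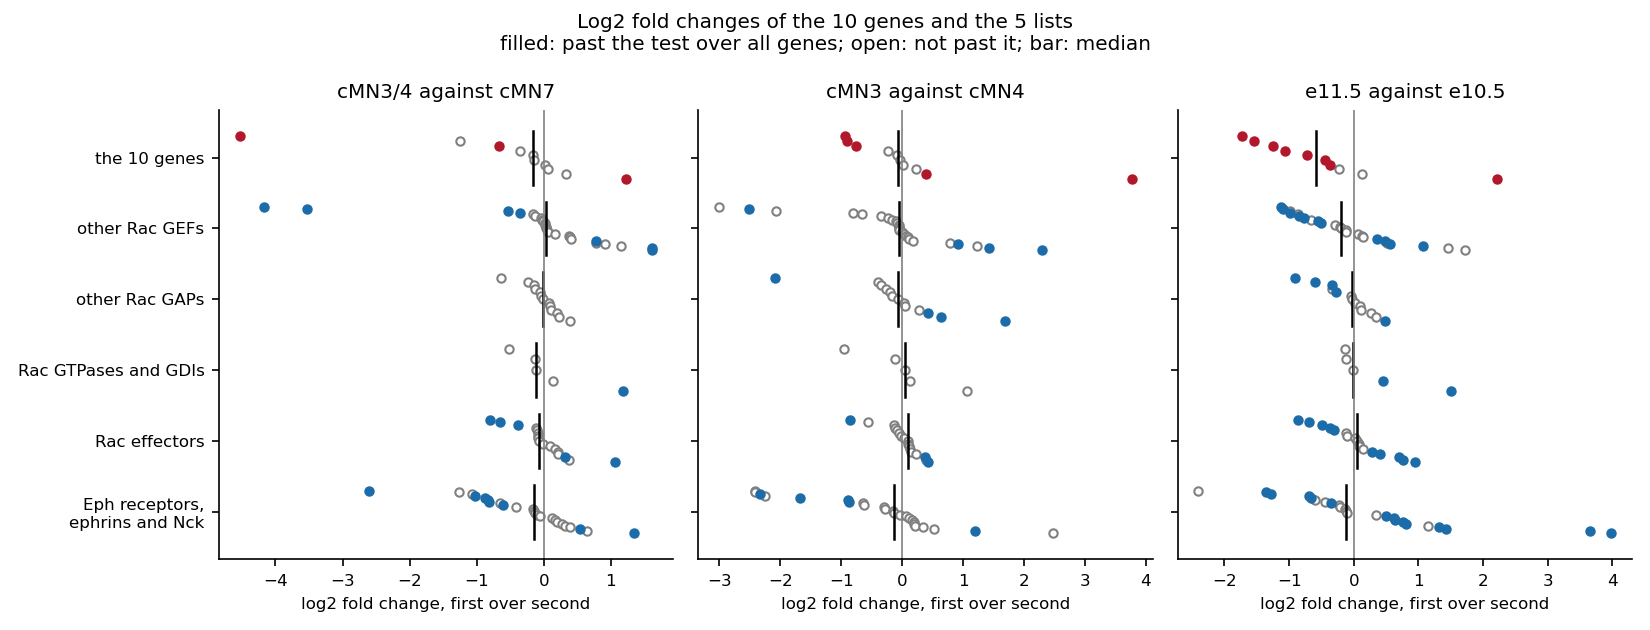
Log2 fold changes of the 10 genes and of the tested genes of the 5 lists in 3 comparisons, with 1 point per gene, filled where edgeR's adjusted p was under 0.05, and bars at list medians. Tiam2 and Chn2 are the outermost filled points of the 10 genes, at -4.54 and 3.77, and the medians of the 5 lists lie between -0.20 and 0.09.

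Between e11.5 and e10.5, 42 of the 84 listed genes passed, 21 higher and 21 lower, near the 49.8% of all genes. On the log2(TPM + 1) scale the split was 36 higher and 7 lower, with the shift of the median of all genes given above, and over all genes 76.5% of the calls were then higher against 53.5% on counts. Among GEFs, Arhgef4 (1.06, adjusted p = 0.000567), Elmo2 (0.57, adjusted p = 9.65e-05) and Spata13 (0.48, adjusted p = 0.00499) were higher at e11.5. Dock6 (-0.99, adjusted p = 3.44e-05), Dock4 (-1.09, adjusted p = 0.000303) and Sos1 (-0.76, adjusted p = 0.000284) were lower. Among GAPs, Abr was higher (0.49, adjusted p = 0.000863), and Srgap1 (-0.60, adjusted p = 0.001), Arhgap22 (-0.91, adjusted p = 0.0033) and Bcr (-0.33, adjusted p = 0.0036) lower, Bcr being at 0.135 on the log2(TPM + 1) scale. Arhgdig (1.5, adjusted p = 0.000472) and Arhgdia (0.45, adjusted p = 0.00814) were higher. Among effectors, Limk2 (0.70, adjusted p = 0.000159), Brk1 (0.76, adjusted p = 0.000694) and Cfl1 (0.41, adjusted p = 0.00148) were higher. Abi2 (-0.87, adjusted p = 6.14e-05), Cyfip1 (-0.69, adjusted p = 0.000324) and Nckap1 (-0.37, adjusted p = 0.00134) were lower, Nckap1 being at 0.08 on the log2(TPM + 1) scale. Among Eph receptors and ephrins, Epha10 (1.31, adjusted p = 1.42e-05), Ephb6 (1.42, adjusted p = 5.04e-05) and Efnb3 (0.76, adjusted p = 0.000797) were higher. Efna5 (-1.36, adjusted p = 1.84e-06), Epha4 (-1.28, adjusted p = 5.44e-05) and Ephb2 (-0.66, adjusted p = 6.11e-05) were lower. By limma on log2(TPM + 1), Sos1 (-0.28), Srgap1 (-0.16), Abi2 (-0.46), Cyfip1 (-0.15) and Ephb2 (-0.24) were lower but did not pass. Relative to the median of all genes they were at -0.61, -0.49, -0.79, -0.48 and -0.57. Bcr and Nckap1 did not pass on that scale either.

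Of 7619 abundant genes, those whose pattern was most like that of Tiam2 were Lrba, Sdk1, Shisa2, Nr2f1 and Syt4, with Pearson r of 0.968 to 0.982 over the 12 libraries after centring log2 CPM within each age. Mean levels of Sdk1 were 144 and 137 CPM in cMN7 at the earlier and later age and 15.1 to 33.5 CPM in the other groups, and those of Nr2f1 were 379 and 422 CPM against 34.6 to 111 CPM. Among the 5 most like Chn1 were Pak1, B4gat1, Gng2 and Atat1, with r of 0.912 to 0.943. Most like Chn2, a list added after its values were seen, were Cxcr4, Doc2b, Casz1, Cacna2d3 and Bend4, with r of 0.930 to 0.959. Cxcr4 was at 230 and 235 CPM in cMN3, 52.8 and 55.5 CPM in cMN4 and 92.5 and 94.7 CPM in cMN7. The 12 points share 3 nuclei and their depths, so these values are descriptions.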

How the data were processed

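Bulk RNA-seq of 12 libraries (3 nuclei, 2 ages, 2 replicates) was analysed, and libraries of cMN6 and the study's other assays were not analysed here. The authors aligned 100 bp paired-end reads with STAR to Ensembl GRCm38 and estimated the expected count of each gene with RSEM, without normalization (versions are not given in the sources used here). The TPM values and the mean transcript length (in bases, weighted by abundance) are RSEM output that the authors deposited. Expected counts were rounded, filtered by filterByExpr (minimum count 10, total 15) and scaled by TMM (library factors 0.732 to 0.967 for the earlier age and 1.11 to 1.22 for the later). All 6 groups were fitted together with edgeR's quasi-likelihood test (edgeR 4.0.16, R 4.3.3, common dispersion 0.0731), with Benjamini-Hochberg adjustment over all genes at 0.05. A standard error is the log2 fold change divided by the root of F. Transcript length was tested with limma 3.58.1 on log2 values, with trend and robust variances, over 9319 genes, and DESeq2 1.42.0 was an alternative. Both fits were tested on simulated data. Symbols, 49326 of 49671, and coordinates come from GENCODE vM21 tables of GRCm38, and promoter windows from RefSeq tables, which matched 9 of the 10 genes. The replicates are pools of embryos, and the labels do not say that a letter marks a shared litter or batch. The differences between A and B correlated across nuclei at e11.5 (r = 0.55 to 0.70 over genes) but not at e10.5 (0.01 to 0.09). The main fits used no pairing. Alternatives took the letter as a block within age, a pairing that comes from the data. The 10 genes and the 5 lists were chosen with earlier results of these data known. The lists were picked by known function and not for how their genes moved, so p-values of levels are printed for list genes only. P-values of transcript length are printed for the 10 genes. Named list genes are the 3 with the smallest p in each direction among those past the test, per list and comparison. The other gene among the 5 most like Chn1 is not reported here. Counting intervals were not computed. Precision is given by the spread of 2 libraries per group, with 6 residual degrees of freedom.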

Additional observations from a re-analysis of the deposited data

Results flagged for a closer look

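EdgeR's test of the interaction asked whether the difference of cMN3/4 from cMN7 changed between the ages, and 0.755% of all genes passed. Of the 84 listed genes 2 passed, Arhgdig and Efnb2, and Tiam2 is given as a description. For Tiam2 the log2 difference grew from -3.54 to -5.53, a change of -1.99 (SE 0.28). As Tiam2 was chosen on such levels, no p is given. For Arhgdig, which encodes a GDP dissociation inhibitor, the difference went from 2.58 to -0.20, a change of -2.78 (SE 0.54, adjusted p = 0.0427). For Efnb2 it was -1.99 and -0.06, a change of 1.93 (SE 0.21, adjusted p = 0.00321). Efnb2 was at 165 and 152 CPM in cMN7 at the earlier age and 42.9 and 58.4 CPM at the later. For Ephb2 and Efnb3, libraries of cMN3/4 all lay below those of cMN7 at e10.5 (-0.21 and -0.74) and all above them at e11.5 (0.45 and 0.41), but the change, 0.65 (adjusted p = 0.12) and 1.15 (adjusted p = 0.11), did not pass edgeR's test.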

How the results depend on the processing

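Of 16 values of the 10 genes past the test, 306 of 310 alternative values kept their direction and 263 also passed. The exceptions in direction were Tiam1 and Vav3 between the ages by limma on log2(TPM + 1) (0.063 and 0.048) and on log2(TPM + 0.1) (0.07 and 0.047). Among list genes, Bcr (0.135 and 0.14) and Nckap1 (0.081 and 0.082) turned on these scales. Epha10 turned for cMN4 alone (-0.063), and Arhgdig at e11.5 alone (-0.20; -0.12 with the replicate block). On the log2(TPM + 1) scale the median of all genes moved by -0.14 for cMN3/4 against cMN7 and -0.15 for cMN3 against cMN4, and 27.1% and 34.8% of calls were higher, against 45.0% and 50.6% on counts. Between cMN3 and cMN4, limma on log2(TPM + 1) and log2(TPM + 0.1) called 2 and 2 of the 10 genes in place of 5, and 10 and 8 of the listed genes in place of 16. Between the ages, limma on log2(TPM + 1) called 5 of the 10 in place of 8. At e11.5 alone, 8 listed genes passed for cMN3/4 against cMN7 in place of 21. For cMN3 against cMN4, alternatives added after seeing the data gave 3 of the 10 genes at e10.5 alone, 1 at e11.5 alone and 2 with the replicate block at e11.5 alone, and 7 listed genes in each of the last 2. With each library left out, the 10 genes gave 3 to 5, 4 to 5 and 6 to 8 calls in the 3 comparisons (cMN3/4 against cMN7, cMN3 against cMN4, and the ages), and listed genes 12 to 22, 13 to 19 and 39 to 46, with 13 and 12 for the first without cMN7 at e10.5 replicate A and B. Genes past the transcript length test were 0 to 137, 0 to 460 and 953 to 2192, against 4, 47 and 1696, with the highest of the first 2 without cMN3 at e10.5 replicate A and the lowest of the third without cMN3 at e11.5 replicate B. Without trend and robust variances the first was 7. With the replicate letter as a block within age, 1 and 8 genes passed the length test in the first 2 comparisons, while 4 and 5 of the 10 genes and 25 and 19 listed genes passed on counts. Over both ages, for the 10 genes and for list genes in the comparisons where they are named, that block changed only the calls given above. These were Prex2 and the Chn2 length. At e11.5 alone it added the call of Tiam2 between cMN3 and cMN4. Of the other Rac GAPs, 2 in place of 0 passed between cMN3/4 and cMN7 with it. The causes were not tested.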
